A study of Mus musculus with 4 samples.

Results

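The genes described here are the ligand Nodal, its inhibitors Lefty1 and Lefty2, its co-receptor Tdgf1 and the primitive streak genes T, Mixl1, Mesp1, Gsc and Evx1. These 9 genes were chosen by name out of the 55418 in the gene table, and each had a row in it. They were measured by RNA-seq in mouse E14 embryonic stem cells (ESCs) of the strain labeled 12910la. WT ESCs (genotype label wild type) were compared with Pim3-/- ESCs, in which the kinase gene Pim3 had been disrupted by CRISPR/Cas9, with 2 libraries in each group. The WT libraries came from separate biological samples and each Pim3-/- library from a clone of its own. All cells grew on gelatin in serum medium with LIF, the cytokine that maintains ESCs. Age, time and drug treatment do not apply to these groups. Differences between the groups cannot be told apart from differences between the cultures and clones.

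Nodal is a secreted ligand of the TGF-β family. Convertases cleave its precursor, and the mature ligand binds activin receptors together with the co-receptor encoded by Tdgf1 (also known as Cripto). The receptors phosphorylate SMAD2 and SMAD3, which enter the nucleus with SMAD4 and act with DNA-binding partners such as FOXH1. Lefty1 and Lefty2 are themselves activated by the pathway, and their secreted products block the ligand and the co-receptor, which closes a feedback loop. In the embryo, Nodal signaling is needed to form the primitive streak, where mesoderm and endoderm arise, and the streak switches on T (Brachyury), Mixl1, Mesp1, Gsc and Evx1. ESCs are known to transcribe the ligand, the inhibitors and the co-receptor while still undifferentiated.

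The gene table held 22029427 to 25668307 counts per library. Pim3 itself had 4392 and 4953 counts in WT against 4970 and 4804 in Pim3-/- libraries. Small edits inside exons need not lower a count over the whole gene, so the Pim3 count does not check the labels, and directions are those between libraries as labeled. In all libraries, the ESC markers Pou5f1, Sox2 and Nanog had at least 4849 counts each, with Pou5f1 and Nanog called lower in Pim3-/- libraries. Fold changes are on scaled counts, with TMM factors of edgeR. With library totals in their place, the median log2 fold change over all tested genes moved up by 0.449, from 0.07 to 0.52. Pou5f1 stayed called lower, Nanog was not called (-0.45, edgeR adjusted p = 0.0984) and Sox2 was called higher (0.83, edgeR adjusted p = 0.022). By qPCR, and for NANOG also by western blot, the paper reported upregulated Nanog and undisrupted Oct4 (Pou5f1) and Sox2 in Pim3-/- ESCs. The lower calls here differ from its results. CPM values are counts relative to library size after TMM scaling, errors beside means are SDs, and a count of 0 allows up to 3 counts, or 0.112 to 0.157 CPM, for counting error only.

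In Pim3-/- ESCs, the ligand and both inhibitors were upregulated, Lefty1 most, whereas the 5 streak genes had at most 34 counts in any library and none of them was called. Nodal and Lefty2 had fold changes of 1.72 each and Lefty1 one of 4.50. Of the 9 genes, 6 passed the filter on low counts, and 3 of these were called higher and 0 lower by edgeR (quasi-likelihood F test, Benjamini-Hochberg adjusted p below 0.05 over all genes tested). Across all 18444 tested genes, 17.6% were called higher and 16.2% lower. At an unadjusted p under 0.05 the numbers for the members were again 3 and 0, and so were the calls of DESeq2's Wald test. The calls rested on having both WT libraries: those of the members were lost without either one, and calls over all genes became fewer too. Log2 fold changes without WT replicate 1 were 0.74 (Nodal), 2.07 (Lefty1) and 0.87 (Lefty2). Without WT replicate 2 they were 0.68, 2.17 and 0.58. In these fits of 3 libraries, the spread comes from the Pim3-/- clones alone. In bulk RNA, a larger number of cells of a type and more RNA per cell cannot be told apart.

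**Figure D1:**
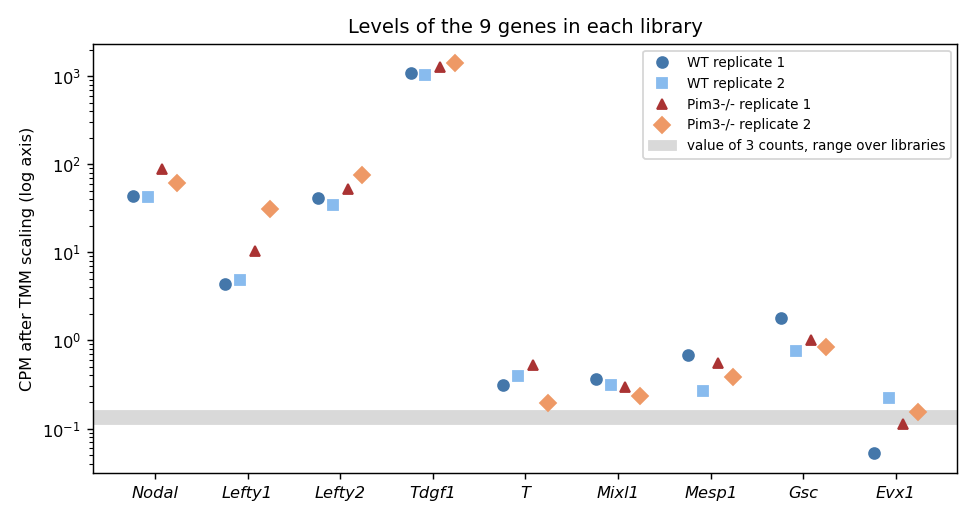
CPM after TMM scaling (log axis) of the 9 genes in the 2 WT libraries (blue circle and square) and the 2 Pim3-/- libraries (red triangle and orange diamond); the gray band is the value of 3 counts. Nodal, Lefty1, Lefty2 and Tdgf1, the last not called, lie higher in both Pim3-/- libraries than in both WT libraries. The share of all genes that separate this way was not counted. T, Mixl1, Mesp1, Gsc and Evx1 lie below 2 CPM in each library.

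Nodal lies on chromosome 10 from 61417972 to 61425338 (GRCm38, plus strand). It had 838 and 972 counts in the WT libraries, or 43.7 and 42.9 CPM, and 2356 and 1564 counts in Pim3-/- replicates 1 and 2, or 88.2 and 60.6 CPM. Both Pim3-/- libraries were above both WT libraries, and the WT libraries lay close together while the clones differed. The means were 43.3 CPM ± 0.588 (SD, n = 2) in WT and 74.4 CPM ± 19.5 (SD, n = 2) in Pim3-/- ESCs. The log2 fold change was 0.78 (standard error 0.21, 95% interval 0.30 to 1.27, edgeR adjusted p = 0.026). Relative to the median of all tested genes it was 0.71. With 1 library left out it lay between 0.47 and 1.01.

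The inhibitor genes are close copies, with 91.8% of positions identical over the coding sequence of 1104 bases. Lefty2 (from 180893108 to 180899103) and Lefty1 (from 180935022 to 180938400) are neighbors on chromosome 1 (GRCm38), 35918 bases apart. Of the 50-base words in Lefty1 transcripts, 17.9% also occur in transcripts of another gene, and of those in Lefty2 transcripts 12.0%. How reads with more than 1 location were counted is not given in the sources used here, so a part of each Lefty count is uncertain. The remaining words tell the genes apart.

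Lefty1 had 84 and 109 counts in WT, or 4.38 and 4.81 CPM, and 278 and 802 counts in Pim3-/- replicates 1 and 2, or 10.4 and 31.1 CPM. The groups did not overlap, and Pim3-/- replicate 2 was 2.99-fold above replicate 1. The means were 4.60 CPM ± 0.302 (SD, n = 2) and 20.7 CPM ± 14.6 (SD, n = 2), with a log2 fold change of 2.17 (standard error 0.48, 95% interval 1.06 to 3.28, edgeR adjusted p = 0.014). Its size depended on the clone, with 1.16 without Pim3-/- replicate 2 and 2.73 without Pim3-/- replicate 1.

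Lefty2 had 783 and 775 counts in WT, or 40.8 and 34.2 CPM, and 1403 and 1972 counts in Pim3-/- replicates 1 and 2, or 52.5 and 76.4 CPM. Again both clones were above both WT libraries. The means were 37.5 CPM ± 4.70 (SD, n = 2) and 64.5 CPM ± 16.9 (SD, n = 2), with a log2 fold change of 0.78 (standard error 0.22, 95% interval 0.27 to 1.29, edgeR adjusted p = 0.0301). Without Pim3-/- replicate 2 the value was 0.47, a single clone being left.

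The clones differed in the order of ligand and inhibitors. Nodal was higher in Pim3-/- replicate 1, by a ratio of 1.46, whereas Lefty1 and Lefty2 were higher in replicate 2. Shares of counts within a library, which do not depend on scaling, showed the same contrast. Lefty1 made up 9.69% of the Lefty1 and Lefty2 counts in WT replicate 1 (95% Wilson interval 7.89 to 11.8) and 12.3% in WT replicate 2 (10.3 to 14.7). In Pim3-/- replicate 1 this share was 16.5% (14.8 to 18.4), and in replicate 2 it was 28.9% (27.3 to 30.6). The share was thus higher in both clones than in both WT libraries, with a larger step between the clones than between WT replicate 2 and Pim3-/- replicate 1. Nodal made up 49.1% and 52.4% of the counts of Nodal, Lefty1 and Lefty2 in WT, 58.4% in Pim3-/- replicate 1 and 36.1% in replicate 2, so that the clones lay on either side of WT. The intervals cover counting error only, and 1 library of a clone has no replicate of its own.

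**Figure D2:**
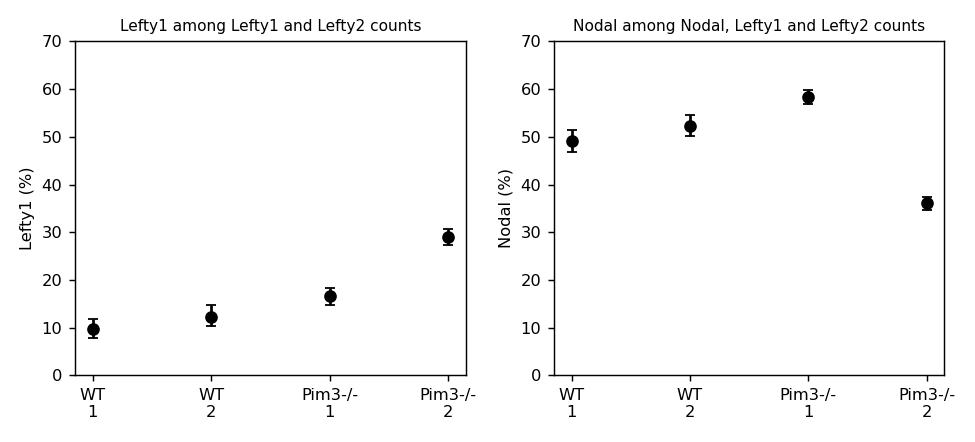
Left, percent of Lefty1 among Lefty1 and Lefty2 counts; right, percent of Nodal among the counts of Nodal, Lefty1 and Lefty2, for each of the 4 libraries, with 95% Wilson intervals as bars. The Lefty1 share runs from 9.69% in WT replicate 1 to 28.9% in Pim3-/- replicate 2, and the Nodal share is 58.4% in one clone and 36.1% in the other.

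Tdgf1, which encodes the co-receptor, lies on chromosome 9 from 110939603 to 110946158 (GRCm38, minus strand) and was by far the most abundant of the 9 genes. It had 20848 and 23236 counts in WT, or 1087 and 1025 CPM, and 33903 and 35894 counts in Pim3-/- replicates 1 and 2, or 1269 and 1391 CPM. The groups did not overlap, but the log2 fold change was 0.33 (standard error 0.20, 95% interval -0.14 to 0.81, edgeR adjusted p = 0.234), and Tdgf1 was not called. With library totals it was 0.78 and was called (edgeR adjusted p = 0.0136, from 0.0136 to 0.754 over its alternatives), so the call depended on the scaling. Of its 50-base words, 8.86% are shared with the pseudogene Tdgf1-ps1.

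The 250 bases before the annotated start are shown for Nodal and Tdgf1, the expressed ligand and its co-receptor, of which only the former was called. They are from RefSeq on GRCm38.p6, 5′ to 3′ on the strand of the gene, where 6 of the 9 members matched by symbol. Capitals mark matches on either strand to the motifs searched: AATCCACA or AATACACA (FOXH1), CAGAC (SMAD), ATGCAAAT (octamer of POU factors), GGGCGTG (KLF) and CTTTGAT (TCF). The windows are chr10:61417722-61417971 on the plus strand for Nodal and chr9:110946159-110946408 on the minus strand for Tdgf1.
Nodal: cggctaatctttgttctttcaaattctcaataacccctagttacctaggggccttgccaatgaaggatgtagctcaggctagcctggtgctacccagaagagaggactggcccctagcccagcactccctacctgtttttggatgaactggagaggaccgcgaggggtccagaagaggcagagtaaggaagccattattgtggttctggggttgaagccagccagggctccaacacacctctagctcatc
Tdgf1: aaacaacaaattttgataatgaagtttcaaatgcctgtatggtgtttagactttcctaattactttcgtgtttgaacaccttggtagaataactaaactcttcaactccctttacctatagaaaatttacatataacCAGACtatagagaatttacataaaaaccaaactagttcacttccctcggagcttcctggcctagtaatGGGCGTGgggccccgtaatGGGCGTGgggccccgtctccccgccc

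The Nodal window held 0 matches. The Tdgf1 window held CAGAC once, 113 bases before the start, and GGGCGTG at 45 and 26 bases before it. Of the streak genes, not printed, Mesp1 had CAGAC at 117 and CTTTGAT at 31 bases before its RefSeq start, which for Mesp1 lies inside the GENCODE gene. Evx1 had the octamer and CAGAC once each, and Gsc and T had 0 matches. The RefSeq start of Gsc also lies inside its GENCODE gene, as does a part of its window. Of all 32851 windows of this length, 42.2% hold CAGAC, 7.55% GGGCGTG, 3.21% CTTTGAT, 1.61% a FOXH1 motif and 1.60% the octamer. A match is a run of letters and not a shown binding site, and no match says only that these letters are not in this window.

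T encodes Brachyury, the T-box factor of the streak and notochord, and lies on chromosome 17 from 8434423 to 8442496 (GRCm38). It had 6 and 9 counts in WT against 14 and 5 in Pim3-/- replicates 1 and 2. The ranges of the groups overlapped. Mixl1, a homeobox gene of mesendoderm on chromosome 1 from 180693043 to 180697034, had 7 and 7 counts in WT against 8 and 6 in Pim3-/- libraries. Evx1, a homeobox gene of the posterior streak on chromosome 6 from 52313498 to 52318378, had 1 and 5 counts in WT against 3 and 4 in Pim3-/- libraries, close to the floor. Its antisense gene Evx1os overlaps it, and use of strand in counting is not given in the sources used here.

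T, Mixl1 and Evx1 did not pass the filter on low counts. In a fit without the filter, their log2 fold changes were -0.02 (95% interval -1.64 to 1.60), -0.36 (-2.003 to 1.28) and -0.10 (-2.62 to 2.40). A difference was not detectable at this depth, and the intervals leave room for changes of more than 2-fold either way. Ratios of summed counts, Pim3-/- over WT, were 1.01 for T (exact 95% interval for counting error 0.486 to 2.13), 0.796 for Mixl1 (0.352 to 1.80) and 0.929 for Evx1 (0.267 to 3.35).

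Mesp1 and Gsc passed the filter. Mesp1, a bHLH gene of early cardiac mesoderm on chromosome 7 from 79792241 to 79793788, had 13 and 6 counts in WT against 15 and 10 in Pim3-/- libraries. Its log2 fold change was 0.04 (standard error 0.62, 95% interval -1.40 to 1.47, edgeR adjusted p = 0.969). Gsc, a homeobox gene of the anterior streak and organizer on chromosome 12 from 104471209 to 104473330, had 34 and 17 counts in WT against 27 and 22 in Pim3-/- libraries. Both Gsc values of the clones lay between those of WT. The log2 fold change was -0.42 (standard error 0.53, 95% interval -1.65 to 0.80, edgeR adjusted p = 0.559). For both genes the sign depended on the settings. Together, the 5 streak genes summed to 61 and 44 counts in WT against 67 and 47 in Pim3-/- libraries, or 3.18 and 1.94 CPM against 2.51 and 1.82 CPM.

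Levels were compared between genes per kb of annotated exon length. In WT, Tdgf1 was highest at 403 CPM per kb ± 16.8 (SD, n = 2), followed by Nodal at 20.7 ± 0.283, Lefty2 at 14.4 ± 1.80 and Lefty1 at 2.61 ± 0.172. The streak genes came last. Gsc was at 0.995 ± 0.570, Mesp1 at 0.370 ± 0.229, T at 0.153 ± 0.0257, Mixl1 at 0.147 ± 0.0174 and Evx1 at 0.0474 ± 0.0414 CPM per kb. T and Mixl1 did not differ beyond their spread, nor did Mesp1 and T beyond the SD of Mesp1, and the difference between Gsc and Mesp1 was little more than the SD of Gsc. In Pim3-/- ESCs the order of the means was the same. There, Nodal (28.9 to 42.1 CPM per kb) and Lefty2 (20.1 to 29.3) overlapped, and Lefty1 lay at 5.92 and 17.7 CPM per kb.

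For each of the 4 expressed members, the genes most like it over the 4 libraries were taken as those with the smallest distance between mean-centered log2 CPM values, among 12367 other genes with at least 50 counts in every library. Nearest to Nodal were Map3k20, Maats1 and Pdk2, at distances of 0.0452 to 0.0614. Nearest to Lefty2 were Slc5a2, Whamm and Tmem30b (0.0534 to 0.0713), and nearest to Tdgf1 were Bag5, Trim26 and Sort1 (0.0372 to 0.0420). Lefty1 had no neighbor as close. Its nearest genes were Lpl, Shisa2 and Plxdc1, at 0.276 to 0.299. Each was higher in Pim3-/- replicate 2 than in replicate 1, an order that comes with the choice by distance over these libraries. Lpl, which encodes lipoprotein lipase, had 113 and 159 counts in WT against 340 and 908 in Pim3-/- libraries. With only 4 libraries, such likeness is a description.

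Beyond the members, 33 other genes of the pathway were listed by role, and 28 of them passed the filter. Of these, 11 were called higher and 0 lower in Pim3-/- ESCs (edgeR adjusted p under 0.05), against 17.6% and 16.2% of all tested genes. At an unadjusted p under 0.05 the numbers were 13 and 1, and DESeq2's Wald test called 11 higher and 1 lower, the latter being Gdf3. Their median log2 fold change was 0.51, against 0.07 for all tested genes. The list was chosen with earlier results of these data known, so its distance from all genes is a description and not a test. With library totals 18 were higher, and so were 6594 of the 18444 genes tested. With a WT library left out fewer were called, in the list and over all genes. Without WT replicate 1 and without WT replicate 2, log2 fold changes were 1.30 and 1.78 for Skil and 1.11 and 1.22 for Acvr1b. Smad7 was called in every fit.

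**Figure D3:**
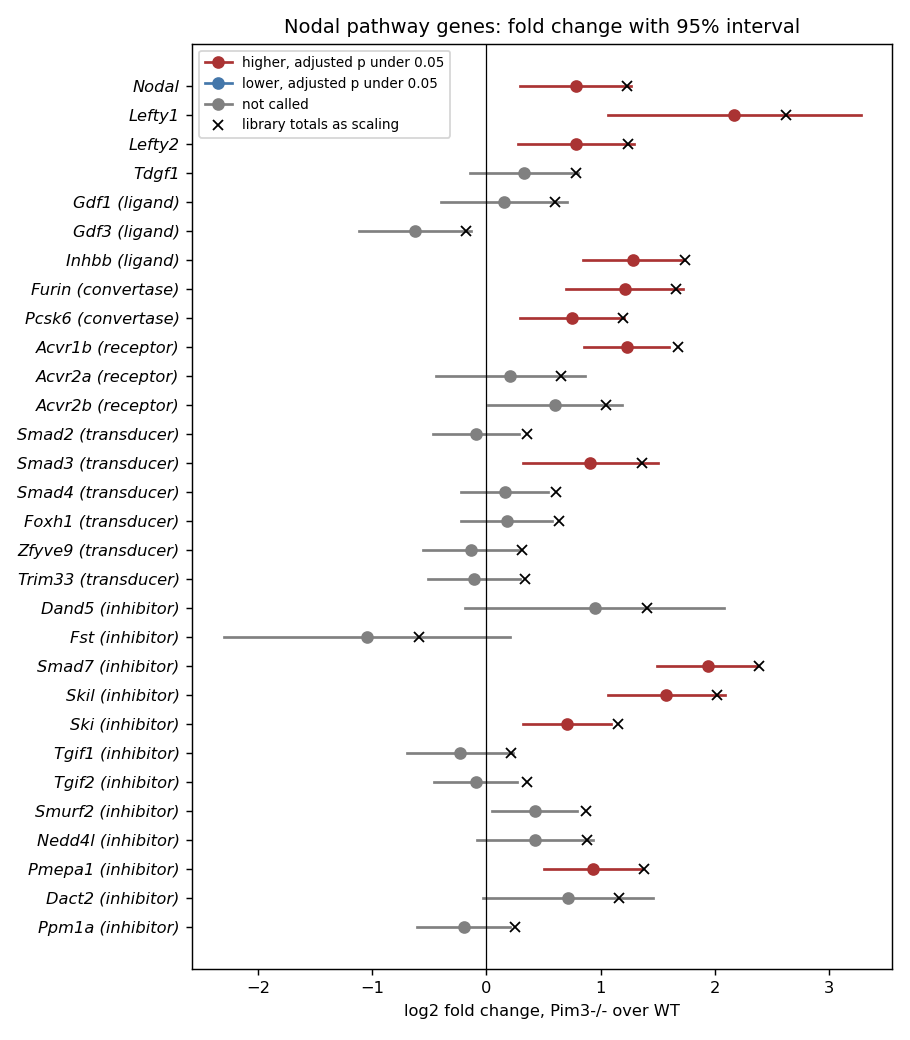
Log2 fold change, Pim3-/- over WT, of the 4 expressed members and 26 tested ligand, convertase, receptor, transducer and inhibitor genes of the pathway list, with 95% intervals as bars (red, called higher; gray, not called; no gene was called lower) and crosses for values with library totals as scaling. Lefty1 lies at 2.17 and Smad7 at 1.94, while Smad2, Smad4 and Foxh1 lie within 0.2 of 0.

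Among related ligands, Inhbb, which encodes a subunit of activin B, rose from 257 and 315 to 983 and 771 counts, with a log2 fold change of 1.29 (standard error 0.19, edgeR adjusted p = 0.00526). Gdf3, a ligand that also uses the co-receptor, had 1882 and 2073 counts in WT against 1334 and 1875 in Pim3-/- libraries. Its log2 fold change was -0.63 (standard error 0.21, edgeR adjusted p = 0.0528). Inhba, the subunit of activin A, was at 0 counts in all libraries.

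Both tested convertase genes were upregulated, where 17.6% of all tested genes were called higher. Furin had 241 and 298 counts in WT against 659 and 902 in Pim3-/- libraries, a log2 fold change of 1.21 (standard error 0.22, edgeR adjusted p = 0.00839). Pcsk6 (also known as PACE4) had 758 and 1070 against 2205 and 1637 counts, a log2 fold change of 0.75 (standard error 0.20, edgeR adjusted p = 0.0235). As for Nodal, Pcsk6 was higher in Pim3-/- replicate 1 than in replicate 2, and Furin was higher in replicate 2.

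Of the receptor genes, Acvr1b, which encodes the type I receptor of Nodal, had 582 and 760 counts in WT against 1961 and 1968 in Pim3-/- libraries. The clones were alike, with 74.8 CPM ± 2.03 (SD, n = 2) against 31.9 CPM ± 2.24 (SD, n = 2) in WT, and the log2 fold change was 1.23 (standard error 0.16, edgeR adjusted p = 0.00424). The type II receptor genes were not called. Acvr2a had 73 and 90 against 121 and 115 counts, a log2 fold change of 0.21 (95% interval -0.45 to 0.86), and Acvr2b had 122 and 163 against 241 and 298 counts, one of 0.60 (0.02 to 1.18). Acvr2b was called with library totals (1.05, edgeR adjusted p = 0.0161) and without Pim3-/- replicate 1 (0.75, edgeR adjusted p = 0.00163). Cfc1, the relative of Tdgf1 known as Cryptic, did not pass the filter, with 8 and 9 counts in WT against 1 and 6 in Pim3-/- libraries.

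Among the transducers, Smad3 rose from 178 and 233 to 591 and 379 counts, with a log2 fold change of 0.91 (standard error 0.25, edgeR adjusted p = 0.0293). Smad2, Smad4 and Foxh1 were not called. Their log2 fold changes were -0.09 (95% interval -0.47 to 0.28), 0.16 (-0.22 to 0.54) and 0.18 (-0.22 to 0.58). With library totals these were 0.35, 0.61 and 0.63, and the last 2 were called.

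Of 12 tested inhibitors besides the Lefty genes, 4 were upregulated, where 17.6% of all tested genes were called higher. Smad7, an inhibitory SMAD, had 500 and 619 counts in WT against 2386 and 2971 in Pim3-/- libraries, a log2 fold change of 1.94 (standard error 0.19, edgeR adjusted p = 0.00284). Skil, which encodes the corepressor SnoN, had 412 and 695 against 1866 and 2218 counts, a log2 fold change of 1.58 (standard error 0.22, edgeR adjusted p = 0.00479). Pmepa1 and Ski, named here after their values were seen, were at 0.93 and 0.71. Cer1, a secreted Nodal antagonist of anterior endoderm, was at 0 counts in all libraries.

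Spsb1, listed as a target of the pathway and named after its values were seen, had 245 and 359 counts in WT against 619 and 906 in Pim3-/- libraries. Both clones were above both WT libraries, and its log2 fold change was 1.02 (standard error 0.25, edgeR adjusted p = 0.0187).

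The list of other streak and early mesendoderm genes had 30 members, of which 21 passed the filter. Of these, 7 were called higher and 1 lower (edgeR adjusted p under 0.05), against 17.6% and 16.2% of all tested genes. Sox17, among the 7, passed the filter only through the Pim3-/- libraries. The median log2 fold change was 0.55, against 0.07 for all tested genes. This list too was chosen with earlier results known, so the comparison with all genes is a description. Calls in the list moved with the libraries kept, as did those over all genes. With 1 library left out, log2 fold changes were 1.60 to 2.67 for Eomes, 1.99 to 2.66 for Fgf3 and 1.76 to 3.48 for Lef1. For Fgf17, called lower, they were -1.99 to -1.76. Foxa2, Lhx1 and Msgn1, which mark the anterior streak and the presomitic mesoderm, had 0 counts in both WT libraries and at most 7 in a Pim3-/- library.

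**Figure D4:**
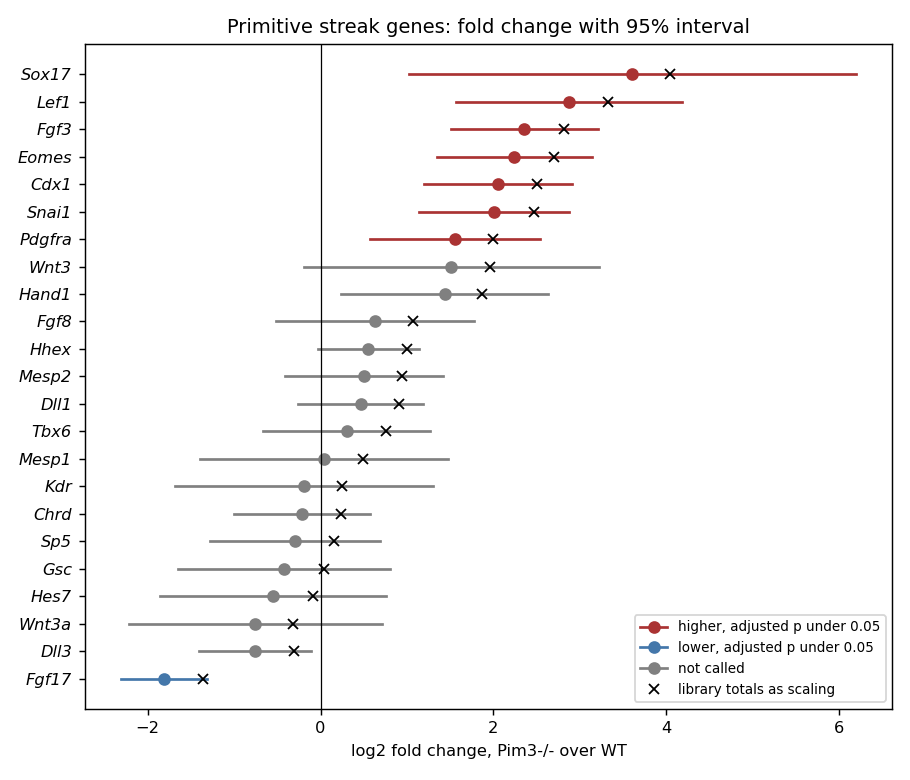
Log2 fold change, Pim3-/- over WT, of the tested streak genes, with Mesp1 and Gsc from the members and 21 genes of the list, with 95% intervals as bars (red, called higher; blue, called lower; gray, not called) and crosses for values with library totals as scaling. Sox17, Lef1, Fgf3, Eomes and Cdx1 lie above 2, and Fgf17 lies at -1.81.

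Eomes, a T-box gene of the streak that also acts in trophoblast, had 74 and 69 counts in WT against 281 and 572 in Pim3-/- libraries. Its log2 fold change was 2.24 (standard error 0.39, edgeR adjusted p = 0.0072). Like Lefty1, it was higher in Pim3-/- replicate 2. Cdx1, a homeobox gene of the posterior streak, had 45 and 48 against 173 and 311 counts, a log2 fold change of 2.05 (standard error 0.37, edgeR adjusted p = 0.00801). Fgf3 rose from 29 and 22 to 147 and 186 counts, with a log2 fold change of 2.36 (standard error 0.36, edgeR adjusted p = 0.00562). This FGF ligand is known from the posterior streak and the otic region.

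Lef1, a transcription factor of Wnt signaling, had 39 and 33 counts in WT against 522 and 154 in Pim3-/- replicates 1 and 2 (log2 fold change 2.87, standard error 0.56, edgeR adjusted p = 0.0101). Without replicate 1 it was 1.76. Sox17, a gene of definitive and primitive endoderm, had 1 and 5 against 85 and 10 counts. It thus passed the filter only through the Pim3-/- libraries, so its call is no support of its own. Its log2 fold change of 3.61 (standard error 1.11, edgeR adjusted p = 0.0409) depended on Pim3-/- replicate 1, in whose absence the value was 1.39. Snai1 and Pdgfra, named after their values were seen, were also called higher, at 2.01 and 1.55. The former drives the loss of epithelial junctions in the streak, and the latter marks mesoderm and primitive endoderm.

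Fgf17, an FGF gene induced in the streak, went the other way. It had 422 and 436 counts in WT against 159 and 150 in Pim3-/- libraries, a log2 fold change of -1.81 (standard error 0.21, edgeR adjusted p = 0.00369), with little spread in either group. Fgf8, the ligand needed for cells to leave the streak, had 9 and 10 against 17 and 20 counts, a log2 fold change of 0.63 (95% interval -0.52 to 1.77). Wnt3, the Wnt gene that starts the streak, had 7 and 3 against 27 and 10 counts, one of 1.51 (-0.20 to 3.22). Neither was called.

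Markers of other cell types moved with the same groups, and their part in these results was not tested. Of 10 primitive endoderm markers, 8 were tested and 7 called higher, while 17.6% of all tested genes were called higher and 16.2% lower. Some called markers passed the filter only through the Pim3-/- libraries. Sox7 had 3 and 0 counts in WT against 91 and 67, and Duxf3, of the 2-cell-like state, 3 and 5 against 81 and 37. The endoderm markers summed to 41.9 and 53.5 CPM in WT and to 268 and 255 CPM in Pim3-/- libraries. Most of this was Col4a1 (means of 14.4 and 131 CPM) and Lama1 (29.4 and 103 CPM). The late markers Afp and Ttr had at most 5 counts in a library. Of 8 markers of the 2-cell-like state, 7 were called higher, with sums of 18.8 and 13.8 CPM in WT and 156 and 44.4 CPM in Pim3-/- replicates 1 and 2. These sums were higher in Pim3-/- replicate 1, as were those of primitive endoderm, pluripotency, neuroectoderm and fibroblast markers. Sums of primed epiblast and trophoblast markers were higher in replicate 2, each from 1 library per clone. The 12 pluripotency markers summed to 6305 and 6157 CPM in WT and to 4568 and 4491 CPM in Pim3-/- libraries, with 2 called higher and 3 lower. Markers of primed epiblast summed to 158 and 190 CPM against 117 and 128 CPM, with 2 called in each direction and Fgf5 at 0, 0, 0 and 2 counts. The fall of the primed epiblast sum was that of Dnmt3b (means of 142 and 58.0 CPM) and Pou3f1, while Otx2 and Zic2 were called higher. Sums of the 9 trophoblast markers were 157 CPM in both WT libraries and 131 and 146 CPM in Pim3-/- libraries, with 2 called higher. Neuroectoderm markers summed to 140 and 132 CPM against 98.9 and 80.0 CPM, with 1 called in each direction. Most of that sum was Tubb3, with means of 124 CPM in WT and 72.2 CPM in Pim3-/- ESCs. Of the 6 neuroectoderm genes tested, 4 had a log2 fold change above 0, with a median of 0.53. Fibroblast markers summed to 27.6 and 28.2 CPM against 49.0 and 44.8 CPM, with 1 called higher, and Col3a1, Dcn, Lum and Postn had at most 3 counts in every library.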

How the data were processed

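RNA-seq libraries of 2 WT and 2 Pim3-/- cultures were grouped by their titles. The authors deposited raw counts per gene symbol, not normalized. Their methods name Cutadapt, Hisat2, the assembly mm10 and Ensembl genes, while the submitters' processing notes list Trim Galore, STAR, featureCounts and GRCm38; which program made the counts and the strand setting are not given in the sources used here. The deposited counts per repeat subfamily were not used.

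Genes were filtered on low counts in edgeR 4.0.16 (filterByExpr with a minimum of 10 and a total of 15); of 31418 genes with a count, 18444 passed. Counts were scaled by TMM factors (0.828 to 1.172) and tested with edgeR's quasi-likelihood test in R 4.3.3, with Benjamini-Hochberg adjustment over all tested genes. Standard errors are the log2 fold change divided by the square root of F, and intervals use the t distribution of the fit. The procedure was tested on simulated counts. A further test was DESeq2 1.42.0. Positions and exon lengths are from GENCODE M21 (GRCm38), promoters from RefSeq, identity from Biopython 1.88.

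The members and lists were chosen with earlier results of these data known. Named genes are the members, 18 fixed pathway and streak genes, the called list genes with the largest fold changes (up to 5 in each direction, each library of the higher group at 10 counts or more) and the nearest genes by distance. Alternatives were other scalings and filters, DESeq2, a replicate block and leaving out each library. A gene of the pathway list enters its counts but is not reported here. P-values measure the spread between these libraries only.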

Additional observations from a re-analysis of the deposited data

How the results depend on the processing

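Counts of calls moved with scaling and with the libraries kept. Over all genes, 3246 were called higher and 2987 lower, and with library totals 6594 and 1094. With 1 library left out, the numbers ran from 402 to 5393 higher and from 373 to 5255 lower; the low ends were without WT replicate 1 and the high ends without Pim3-/- replicate 1, where the spread comes from the WT libraries alone. In such fits the lone library is assumed to vary like the other group. Of the members, 0 to 3 were called higher with 1 library left out, and 4 with library totals, where Tdgf1 joined. Of the pathway list, 18 were higher with library totals and 2 to 16 with 1 library left out; 1 was lower with the size factors of DESeq2, without a filter, in the Wald test of DESeq2 and with the replicate block (Gdf3 each time, at -0.67, -0.66, -0.67 and -0.65), and 0 to 3 with 1 library left out. The streak list had 3 to 13 higher and 1 to 2 lower with 1 library left out.

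The replicate numbers in the titles are no known pairing, and deviations of same-numbered libraries correlated at 0.0306 across genes. With the replicate block, 3403 genes were called higher and 3272 lower, with 3 members, 11 pathway and 8 streak genes higher; Hand1 joined the streak calls and Gdf3 was called lower.

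Of 275 values of 28 named genes under the alternatives, 235 kept direction and side of the threshold, and 20 of the 21 calls lost were in fits without a WT library. Signs turned for Mesp1 (-0.0088 with the size factors of DESeq2, -0.029 in the Wald test, -0.59 to 0.78 with 1 library left out), Gsc (0.040 with library totals, -1.01 to 0.26 with 1 left out) and Smad2 (0.35 with library totals). At a few counts per library, depth limits T, Mixl1, Mesp1 and Evx1 most. The causes were not tested.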

Other observations

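Genes within 100 kb of the members were looked up after the values of the members had been seen. Around Nodal, 4 other genes were tested, with edgeR adjusted p-values from 0.121 to 0.847. Eif4ebp2, the nearest of them at 3153 bases, was at a log2 fold change of 0.41 (standard error 0.18, edgeR adjusted p = 0.121). Tmem63a, an ion channel gene 3944 bases from Lefty1, was at 0.90 (standard error 0.31, edgeR adjusted p = 0.0599). H3f3a, a histone H3 gene at 79165 bases from Lefty2, was called lower at -1.13 (standard error 0.20, edgeR adjusted p = 0.00767), as was the noncoding gene Gm17275 at -1.17 (standard error 0.20, edgeR adjusted p = 0.00708).

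Evx1 lies at the end of the HoxA cluster, and of 6 tested genes within 100 kb of it, 4 were called higher and 1 lower. Across all tested genes, 17.6% were called higher and 16.2% lower, and whether the neighborhoods of members differ from these shares was not tested. While Evx1 had at most 5 counts in each library, Hoxa7, Hoxa9, Hoxa10 and the noncoding gene Hoxa11os were called higher. Their log2 fold changes were 2.54 (standard error 0.79), 4.44 (standard error 1.00), 3.24 (standard error 0.78) and 3.33 (standard error 0.95), with edgeR adjusted p-values of 0.0424, 0.0152, 0.0186 and 0.0319. Gm8129, a pseudogene and the nearest of the 6 at 28352 bases, was called lower at -1.28 (standard error 0.38, edgeR adjusted p = 0.0353), and Hoxaas3 was not called, at 1.10 (standard error 0.60, edgeR adjusted p = 0.189). Near T, 4 genes were tested, with 1 called higher and 1 lower. The phosphodiesterase gene Pde10a, 82876 bases away, was called higher at 3.58 (standard error 0.68, edgeR adjusted p = 0.00942), and AC164431.1, at 37571 bases, was called lower at -1.36 (standard error 0.23, edgeR adjusted p = 0.00728). T2, at 10910 bases, was at 0.61 (standard error 0.53, edgeR adjusted p = 0.397). Of 8 tested genes near Mesp1, Kif7 and Anpep were called higher, at 0.77 each, and of 8 near Tdgf1, Prss50 was called higher, at 1.11.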
